A study of Homo sapiens with 6 samples.

Results

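The comparison described here sets A375 cells given vemurafenib and AT9283 together for 6 h against A375 cells given the solvent DMSO for 6 h. It uses 2 of the 6 arrays of the series, chosen by their labels, with 1 array on each side. A375 is an established line of human melanoma cells that carry mutant BRAF. The combination array came from cells given 10 µM vemurafenib and 100 nM AT9283, and the other arrays at 6 h came from cells given DMSO, 10 µM vemurafenib alone or 100 nM AT9283 alone. Both arrays at 16 h came from cells given DMSO or 10 µM vemurafenib. The series title places the experiment in work on how ATF4 expression is controlled in BRAF-mutant melanoma, and the comparison shows the transcripts of cells under both inhibitors at the earlier time.

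Vemurafenib inhibits mutant BRAF, the kinase that keeps the RAF, MEK and ERK chain active in such cells. Active ERK switches on transcription factors of the ETS, AP-1 and MYC families and also its own brakes, the dual-specificity phosphatases and the Sprouty and SPRED proteins, so their transcripts are commonly used to read ERK output. AT9283 acts on more than 1 kinase family, including JAK2 and the Aurora kinases that run mitosis. The integrated stress response acts through the transcription factor ATF4. This factor is translated when the initiation factor eIF2α is phosphorylated, and it switches on genes that make, import and charge amino acids, together with stress regulators.

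The promoters of 6 genes that rose or fell under both drugs are printed for the elements that AP-1, CREB-like and ATF4 proteins are known to bind. Each is the 250 bases before the annotated start, 5′ to 3′ along the gene, from RefSeq on GRCh38.p14, with the match in capitals. The searched words were TGANTCA (the AP-1 element), TGACGTCA (the cAMP response element) and TGATGNAA (the composite element of ATF4 and C/EBP proteins), on both strands, and none of these words can match the same bases as another in full. CXCL8, a neutrophil chemokine, lies at chr4:73740319-73740568 (plus strand) and ANKRD1, a nuclear ankyrin repeat protein, at chr10:90921088-90921337 (minus strand). The cytokine IL11 lies at chr19:55370464-55370713 (minus strand) and PLAUR, the urokinase receptor, at chr19:43670170-43670419 (minus strand). All 4 hold TGANTCA.
CXCL8: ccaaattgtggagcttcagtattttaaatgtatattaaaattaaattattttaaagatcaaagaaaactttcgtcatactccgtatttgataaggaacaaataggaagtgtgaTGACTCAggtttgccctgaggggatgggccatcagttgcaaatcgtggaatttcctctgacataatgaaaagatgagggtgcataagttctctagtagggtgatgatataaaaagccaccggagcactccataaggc
ANKRD1: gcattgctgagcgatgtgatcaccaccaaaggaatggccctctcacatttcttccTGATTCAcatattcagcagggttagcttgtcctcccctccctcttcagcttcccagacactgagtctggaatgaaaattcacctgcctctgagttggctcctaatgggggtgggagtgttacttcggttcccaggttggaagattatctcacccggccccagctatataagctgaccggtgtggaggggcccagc
IL11: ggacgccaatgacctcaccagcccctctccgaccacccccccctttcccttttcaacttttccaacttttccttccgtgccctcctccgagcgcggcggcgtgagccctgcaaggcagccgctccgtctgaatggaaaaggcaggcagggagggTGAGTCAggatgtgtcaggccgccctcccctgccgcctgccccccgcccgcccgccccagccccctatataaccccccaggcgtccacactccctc
PLAUR: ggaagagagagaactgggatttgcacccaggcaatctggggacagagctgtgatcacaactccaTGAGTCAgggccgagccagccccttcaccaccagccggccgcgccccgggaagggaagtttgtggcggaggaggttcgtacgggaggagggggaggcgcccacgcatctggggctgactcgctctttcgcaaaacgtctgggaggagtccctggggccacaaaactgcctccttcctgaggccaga
The small MAF factor gene MAFF, at chr22:38201744-38201993 (plus strand), holds TGACGTCA. CHAC1, which degrades glutathione, lies at chr15:40953221-40953470 (plus strand) and holds TGATGNAA on the opposite strand, so the capitals show its reverse complement.
MAFF: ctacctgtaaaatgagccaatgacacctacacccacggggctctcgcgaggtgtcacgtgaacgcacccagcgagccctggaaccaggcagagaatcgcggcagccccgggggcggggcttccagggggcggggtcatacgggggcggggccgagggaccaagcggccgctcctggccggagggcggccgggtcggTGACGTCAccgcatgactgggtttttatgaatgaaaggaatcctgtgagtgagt
CHAC1: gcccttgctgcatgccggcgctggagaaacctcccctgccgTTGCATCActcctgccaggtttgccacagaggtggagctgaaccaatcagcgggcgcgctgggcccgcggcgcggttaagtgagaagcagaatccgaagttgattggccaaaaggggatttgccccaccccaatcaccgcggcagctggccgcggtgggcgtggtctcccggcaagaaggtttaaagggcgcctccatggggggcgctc
A promoter was found for 140 of the genes that fell and 43 of those that rose. TGANTCA was in 13 of the 140 (9.29%) and in 3 of the 43 (6.98%), beside 6.60% of all 27305 promoters of this length and 3.71% of the 7618 whose genes reached the intensity floor described next. TGACGTCA was in 4 (2.86%) and 0, beside 1.77% of all promoters and 3.11% of those at the floor. TGATGNAA was in 4 (2.86%) and 2 (4.65%), beside 3.19% and 1.38%. The CArG box of serum response factor was searched as well and was in 4 (2.86%) and 1 (2.33%), beside 1.14% and 1.02%. A match is a description of these letters and not a site or a cause.

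Levels are log2 intensities of 1 probe set per gene. A gene is said to have risen or fallen when its log2 levels lay 1 or more apart, a 2-fold change, and the higher array was at the floor of 6 or above, an intensity of 64. The rule looks at size and tests nothing, since 1 array per condition gives no spread between replicates, and the number of arrays limits the precision. The median intensity of the 6 arrays lay between 19.79 and 21.29, and 44.69% to 46.06% of the 19676 genes were at the floor. Of 9076 genes at the floor on the combination or the DMSO array, 58 rose (0.639%) and 175 fell (1.93%). At these shares a short list with 0 genes passing is near all genes, and a gene below the floor cannot pass. The DMSO array at 16 h set against the one at 6 h, a pair without drug that also differs in time, put 17 genes higher (0.188%) and 8 lower (0.0883%) among 9055. Differences at the floor had an SD of 0.39 across genes with both drugs and of 0.24 in the DMSO pair. The median difference of all genes was 0.01. In bulk RNA, fewer cells with a transcript and less of it in each cell cannot be told apart.

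**Figure D1:**
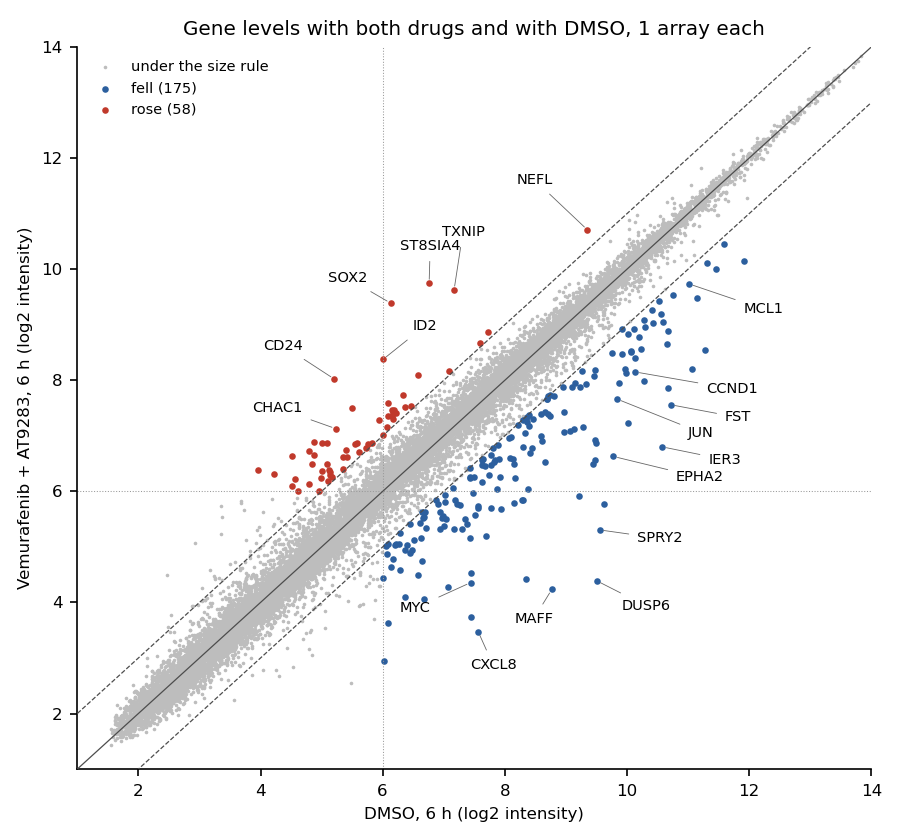
Log2 intensity of each gene with vemurafenib and AT9283 at 6 h (vertical) against DMSO at 6 h (horizontal), 1 array each. Dashed lines mark a difference of 1 either way and dotted lines the floor at 6; blue points are the 175 genes that fell, red points the 58 that rose, and grey points beyond the dashed lines are below the floor. The falling genes reach farther from the diagonal, down to DUSP6 at 4.39 from 9.50, than the rising ones.

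Larger differences were mostly falls. By 2 or more on the log2 scale 41 genes fell and 10 rose, and by 3 or more 13 fell and 1 rose. The genes that fell had a median level of 8.21 with DMSO and 6.56 with both drugs, and 69 of them ended below the floor, so the size of those falls depends on values near background. The genes that rose went from a median of 5.52 to 6.87, and 36 of the 58 started below the floor. Other probe sets of the same genes were not used by the rule. Of 297 such probe sets for 128 of the falling genes, taken without a floor, 270 were lower with both drugs and 142 by at least 1, and of 88 for 42 of the rising genes 79 were higher and 33 by at least 1. Most of these lay below the floor, where a probe set carries little signal. Where the mean of the 2 arrays was at the floor, 104 of 104 were lower for the falling genes and 14 of 14 higher for the rising ones, on the arrays that chose the genes. Against the DMSO array at 16 h, which took no part in the choice although the combination array is shared, all 175 falling genes were lower (135 by at least 1) and 56 of the 58 rising genes were higher (28 by at least 1).

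The cell line's identity was checked on its lineage factors. SOX10 was at 9.14 with DMSO and 8.42 with both drugs, MITF at 9.05 and 9.10, and PAX3 and TFAP2A were also at the floor on both arrays. MLANA, PMEL and TYR, pigment cell markers, and S100B were below the floor on both, and 5 of 18 measured pigment cell genes were at it. Of the epithelial markers KRT18, KRT8 and KRT14 were at the floor, while EPCAM and CDH1 were below it. Blood, endothelial and fibroblast markers were near or below the floor, HBB at 5.98 and 6.01 and COL1A1 at 6.75 and 6.80 being the highest. The log2 of the summed intensity went from 10.47 to 10.28 for the 8 lineage markers and from 12.12 to 11.54 for the 7 epithelial ones.

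Feedback genes of ERK signalling held several of the deepest falls. Of 10 measured Sprouty, SPRED and other feedback genes 7 fell and 0 rose, with a median difference of -1.59, and of 10 MAP kinase phosphatases 3 fell and 0 rose, with a median of -0.79. DUSP6, the phosphatase that acts on ERK itself, was at 9.50 with DMSO, 4.28 with vemurafenib, 9.35 with AT9283 and 4.39 with both drugs. Its transcript was thus low on both arrays with vemurafenib and high on both without it, and both drugs lowered it 34.7-fold against DMSO (log2 -5.12). DUSP4, a nuclear phosphatase of the same family, was at 9.62, 6.02, 9.58 and 5.77 in the same order of arrays. DUSP5, which holds ERK in the nucleus, was at 7.69, 5.51, 7.61 and 5.20. The remaining phosphatases stayed under the rule, from DUSP1 at -0.92, induced by many stresses, to DUSP14 at -0.09.

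SPRY2, a Sprouty protein that blocks the path from receptors to RAS, was at 9.55 with DMSO, 5.49 with vemurafenib, 9.52 with AT9283 and 5.31 with both drugs, a fall of 4.24. IER3, an immediate early gene that prolongs ERK activity, was at 10.58, 6.65, 10.69 and 6.80. PHLDA1, a pleckstrin-domain protein and common ERK reporter, was at 11.07, 8.04, 11.15 and 8.21. In each of these 3 genes the arrays with vemurafenib lay within 0.2 of each other. SPRED2 fell by 2.32, SPRY4 by 1.17 and SPRED1 by 1.08. ERRFI1, an inhibitor of the EGF receptor, was at 10.65, 9.50, 10.35 and 8.65, lower with both drugs than with vemurafenib alone. Of 10 measured genes of the RAF, MEK and ERK cascade, 7 of them at the floor, 0 passed the rule. This is near the 1.93% that fell over all genes at the floor. The median of the cascade genes was 0.00, from ARAF at -0.31 to KSR1 at 0.25.

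Transcription factors downstream of ERK fell in part. Of 13 ETS factors 3 fell, with a median of -0.31. ETV5 was at 8.17 with DMSO, 5.93 with vemurafenib, 8.10 with AT9283 and 6.24 with both drugs, and ETV1 was at 8.45, 6.50, 8.28 and 6.78. ETV4, of the same subfamily, went from 8.46 to 7.75 and stayed under the rule at -0.71. ELK3, a ternary complex factor, fell by 1.42, and ELF1 (0.49) and GABPA (0.34) had the highest differences of the group.

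Of 11 AP-1 and small MAF factors 4 fell, with a median of -0.97. MAFF, a small MAF factor without a transactivation domain whose promoter is printed above, was at 8.77 with DMSO, 5.10 with vemurafenib, 8.36 with AT9283 and 4.23 with both drugs, a fall of 4.53. Its other probe set fell by less, from 7.45 to 5.71. FOSL1, the FOS-related subunit of AP-1, was at 9.27, 6.76, 9.43 and 7.16. JUN, its common partner, was at 9.84, 8.80, 9.68 and 7.66, so the combination array was the lowest of the 4 and lay 1.14 below vemurafenib alone. The JUN probe set used is marked as cross-hybridizing, and the best of the remaining ones, below the floor on both arrays, differed by -1.56. FOSL2 fell by 1.04, FOS (-1.46) and FOSB (-0.97) were below the floor on both arrays, and JUND had a difference of 0.26.

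MYC, the growth regulator, was at 7.44 with DMSO, 5.31 with vemurafenib, 7.23 with AT9283 and 4.36 with both drugs. It was lowest on the combination array, below the floor there, and the fall against DMSO was 8.48-fold. None of the other 9 measured genes of the MYC network passed the rule, and the list's median was -0.36. Of 14 immediate early genes 4 fell, with a median of -0.52, namely EGR3 (-1.55), ZFP36L2 (-1.53), CCN1 (-1.35) and IER2 (-1.22). EGR1, the classic ERK-induced zinc finger factor, was below the floor on both arrays, at 5.87 and 3.70. ATF3, which is on both this list and the ATF4 list, had the highest difference of the group at 0.78.

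**Figure D2:**
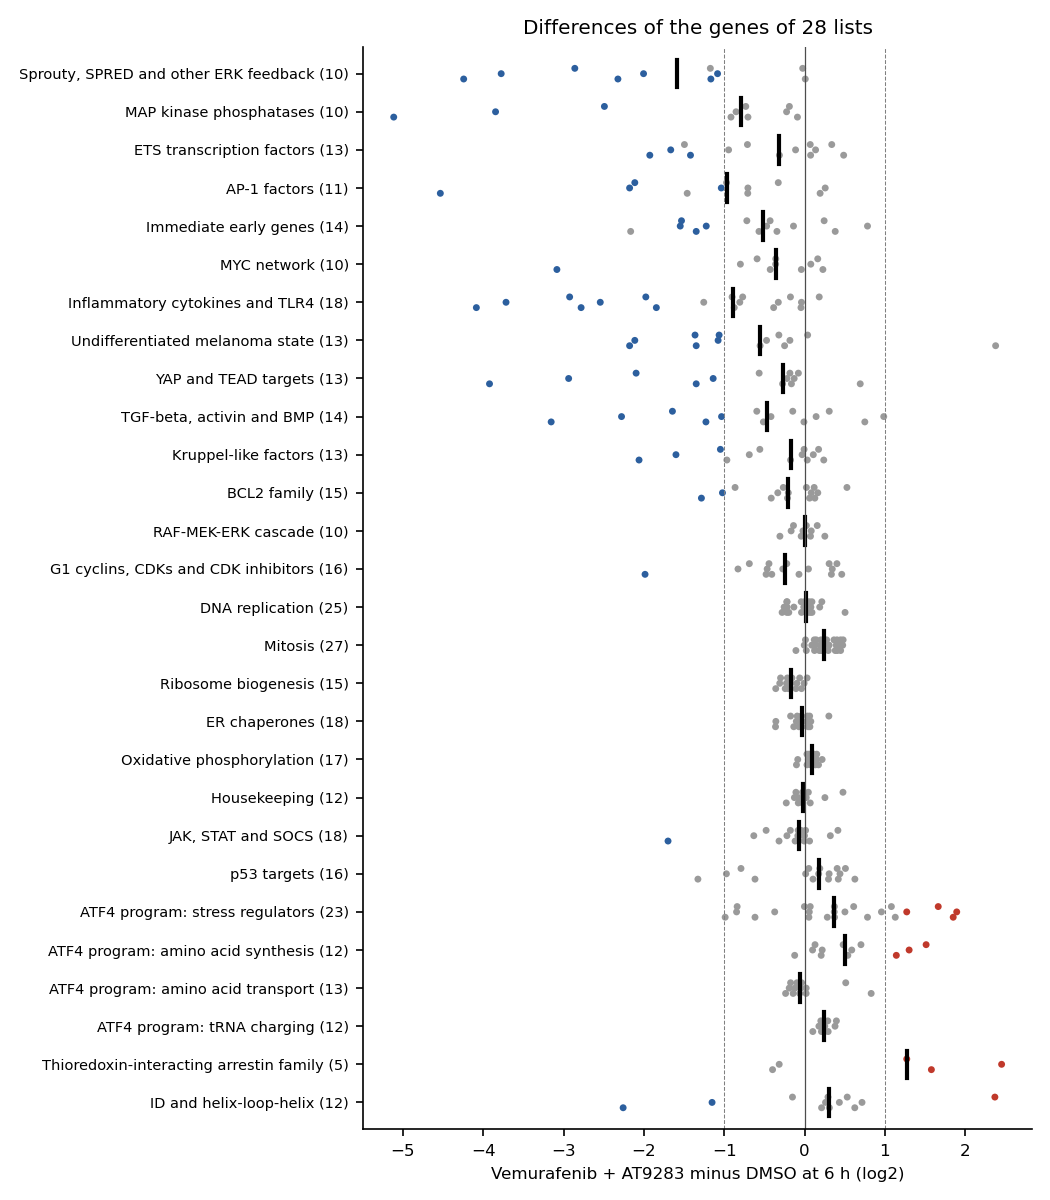
Difference in log2 intensity, vemurafenib and AT9283 minus DMSO at 6 h, of every measured gene of 28 gene lists (number measured in brackets), with a black bar at each list's median. Blue points fell, red points rose, and grey points did not pass the size rule; points are spread vertically only to separate them. ERK feedback genes reach -4.24 and their median is -1.59, while DNA replication, housekeeping and cascade genes lie near 0 and the ATF4 stress regulators reach 1.89.

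Of 18 measured genes of the list of inflammatory cytokines with TLR4, 7 fell and 0 rose, with a median of -0.89. CXCL8 was at 7.56 with DMSO, 3.29 with vemurafenib, 7.68 with AT9283 and 3.48 with both drugs, so it was below the floor on both arrays with vemurafenib. CXCL1, a related chemokine, was at 9.48, 6.42, 9.26 and 6.56. IL11, a cytokine of the interleukin-6 family, was at 9.48, 6.72, 9.61 and 6.93. LIF of the same family fell by 1.85, IL24 by 2.78 and TNFAIP3, the NF-κB brake A20, by 1.98. TLR4, the endotoxin receptor, was at 7.45, 3.73, 7.15 and 3.74, and 3 other probe sets of it fell as well. IL6 itself was below the floor on every 6 h array. SOCS3, the feedback inhibitor of cytokine receptors, was at 6.28, 4.48, 6.23 and 4.58 and was the only 1 of 18 JAK, STAT and SOCS genes to pass the rule. The median of that list was -0.08, and JAK2, a target of AT9283, was at 5.59 with DMSO and 6.00 with both drugs.

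Genes of the TGF-β and Hippo pathways fell to a varying degree. Of 14 genes of TGF-β, activin and BMP signalling 5 fell, with a median of -0.47. FST, the activin antagonist follistatin, was at 10.71 with DMSO, 8.97 with vemurafenib, 10.02 with AT9283 and 7.56 with both drugs. Here the arrays formed steps, with AT9283 alone 0.69 below DMSO and the combination 1.41 below vemurafenib alone. INHBA, a subunit of activin, was at 10.27, 8.72, 10.03 and 7.99. SMAD3, the signal carrier, fell by 1.64, the receptor gene TGFBR2 by 1.23 and the ligand TGFB2 by 1.03.

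Of 13 genes of the YAP and TEAD list 5 fell, with a median of -0.27. ANKRD1 was at 8.34 with DMSO, 5.26 with vemurafenib, 8.19 with AT9283 and 4.42 with both drugs. CCN2, a matricellular protein formerly called CTGF, was at 9.44, 7.66, 9.03 and 6.50. Both were lowest on the combination array. Coagulation factor gene F3 fell by 2.10, CCN1 by 1.35 and WWTR1, which encodes TAZ, by 1.14. YAP1 had a difference of -0.13 and AXL of -0.18.

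EPHA2 and TGFA were the largest falls among receptors and ligands of tyrosine kinase signalling. EPHA2, an ephrin receptor, was at 9.78 with DMSO, 6.64 with vemurafenib, 9.78 with AT9283 and 6.63 with both drugs. It alone of 16 ephrin genes, 6 of them at the floor, passed the rule. TGFA, a ligand of the EGF receptor, was at 10.02, 6.92, 9.98 and 7.23. EGFR fell by 1.06 and was the only 1 of 19 receptor tyrosine kinases, 11 of them at the floor, to pass the rule. ERBB3 had a difference of 0.90 and MET of -0.57. PLAUR fell by 2.01 from 9.13, but on its probe set without shared sequence the difference was -0.32. The undifferentiated melanoma list, which shares JUN, FOSL1 and CCN1 with lists above, held 6 falls among 13 genes, with TNFRSF11B at -1.36 and WNT5A at -1.08 among them. FOXC2, a forkhead factor, was at 9.22, 6.16, 9.27 and 5.92. PTX3, a soluble pattern-recognition protein, fell by 2.81, ESM1, an endothelial proteoglycan, by 3.07 and ADGRF1, an adhesion receptor, by 2.93. ESM1 was at 6.02 with DMSO and 2.95 with both drugs, so its fall lay almost wholly below the floor. Its probe set is marked as cross-hybridizing.

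Cell cycle genes showed a narrow change. CCND1, the cyclin D1 that ERK induces in G1, was at 10.14 with DMSO, 7.56 with vemurafenib, 10.17 with AT9283 and 8.15 with both drugs, and was the only 1 of 16 G1 genes to pass the rule. It was therefore 0.59 higher with both drugs than with vemurafenib alone. None of 25 DNA replication genes (median 0.02), 12 E2F and RB genes (-0.03) and 27 mitosis genes (0.25) passed the rule. Over all genes at the floor 0.639% rose and 1.93% fell, so these counts lie near that share. Of the 27 mitosis genes 25 had a positive difference, the highest being ASPM and TTK at 0.48, where 59.72% of all genes at the floor did. AURKA, a target of AT9283, was at 10.77 with DMSO, 10.75 with vemurafenib, 10.90 with AT9283 and 11.11 with both drugs. AURKB was at 9.40, 9.39, 9.38 and 9.38. The 8 Aurora kinase and passenger complex genes had a median of 0.18, and 15 genes of ribosome biogenesis one of -0.17, with none passing in either list.

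Among 15 BCL2 family genes 2 fell and 0 rose, with a median of -0.20. MCL1, a short-lived survival factor, was at 11.02 with DMSO, 9.74 with vemurafenib, 11.04 with AT9283 and 9.73 with both drugs. BCL2L1, which encodes BCL-XL, was at 8.40, 7.22, 7.97 and 7.38. The pro-apoptotic BCL2L11, which encodes BIM, was at 6.36 and 6.42 with a difference of 0.06. The 16 p53 targets had a median of 0.18 and none passed, with CDKN1A, the inhibitor p21, at 0.31. Of 13 Krüppel-like factors 3 fell. KLF4 was at 7.89 with DMSO, 7.98 with vemurafenib, 7.95 with AT9283 and 6.84 with both drugs. Its level was low on the combination array alone of the 4. The other KLF4 probe set was below the floor, at 5.26 with DMSO and 4.98 with both drugs, and neither is free of shared sequence. KLF6, at 8.60, 7.73 and 8.34 on the first 3 arrays, was lower with vemurafenib too and fell by 1.60 with both drugs. KLF2 fell by 2.06 on a shared probe set, and its probe set without shared sequence was below the floor on both arrays, at 4.35 and 4.22.

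**Figure D3:**
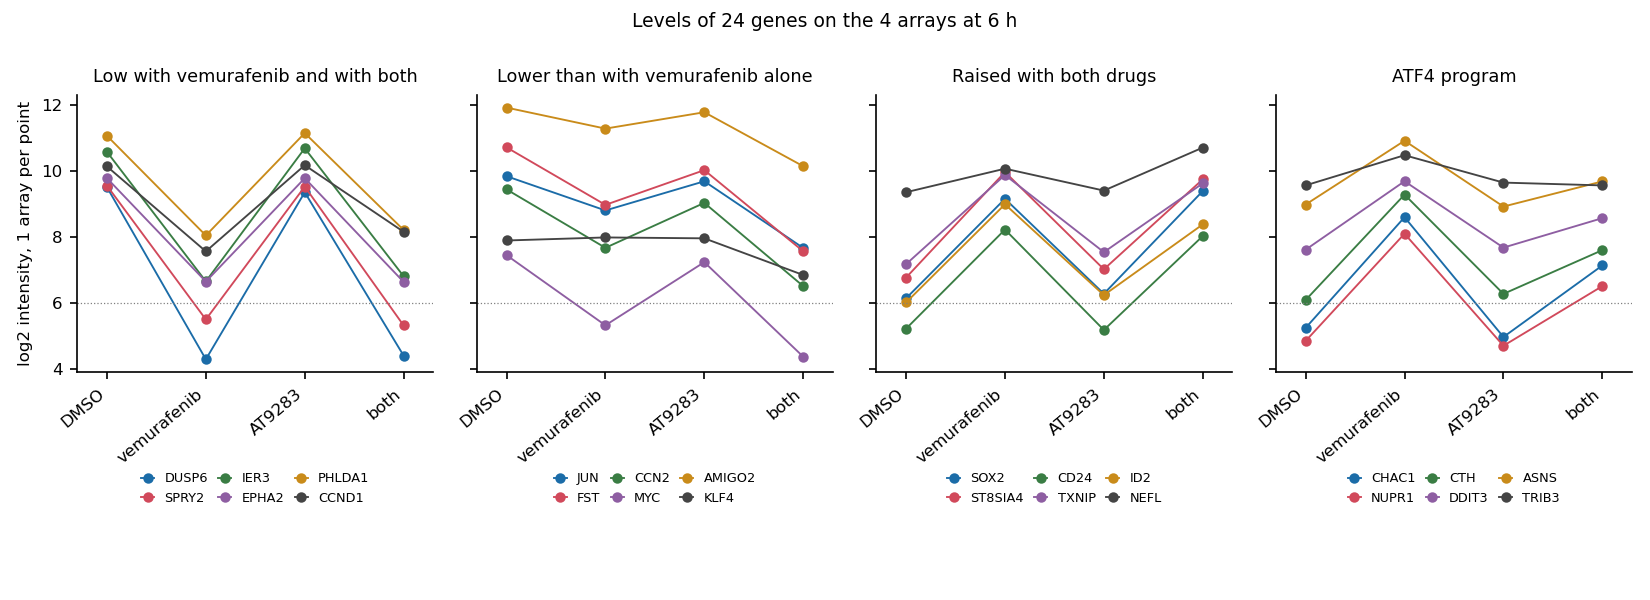
Log2 intensity of 24 genes on the 4 arrays at 6 h (DMSO, vemurafenib, AT9283, both drugs), 1 array per point, with a dotted line at the floor of 6. The first panel's genes lie within 0.59 of each other on the arrays with vemurafenib and with both drugs, those of the next panel are lowest with both, those of the panel after it are high on both vemurafenib arrays, and the ATF4 genes peak with vemurafenib alone, CHAC1 at 8.59 against 7.13 with both drugs.

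The highest rises were those of SOX2, ST8SIA4, CD24, TXNIP, VAV3 and ID2, by 2.37 to 3.26 on the log2 scale. SOX2, a transcription factor of stem and neural progenitor cells, was at 6.13 with DMSO, 9.15 with vemurafenib, 6.27 with AT9283 and 9.39 with both drugs. It rose 9.55-fold and was the 1 gene to rise by over 3. Of 17 neural crest and melanocyte factors it alone passed the rule, and FOXD3 went from 3.36 to 5.74, below the floor on both arrays. ST8SIA4, which adds polysialic acid to cell surface proteins, was at 6.76, 9.96, 7.01 and 9.74. CD24, a small glycoprotein of the cell surface, was at 5.21, 8.22, 5.17 and 8.02. In these 3 genes the arrays with vemurafenib stood together, far above those without.

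TXNIP, which binds thioredoxin and limits glucose uptake, was at 7.17 with DMSO, 9.88 with vemurafenib, 7.53 with AT9283 and 9.62 with both drugs. Its relatives ARRDC4 and ARRDC3 rose by 1.58 and 1.27, so 3 of 5 measured genes of the arrestin family rose and the list's median was 1.27. ARRDC2 (-0.40) and ARRDC1 (-0.32) did not. ID2, an inhibitor of helix-loop-helix factors, was at 6.01, 8.99, 6.23 and 8.38, between DMSO and vemurafenib alone but nearer the latter. ID3 (0.72) and ID1 (0.43) stayed under the rule, and 2 members of the same list fell, the Notch target HES1 by 2.26 and the clock regulator BHLHE40 by 1.15. Another probe set of HES1 went from 6.34 to 3.94, and the one without shared sequence was below the floor on both arrays, at 2.81 and 2.83.

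Signalling genes followed. VAV3, a signalling adaptor of the VAV family, was at 3.95 with DMSO, 6.14 with vemurafenib, 4.02 with AT9283 and 6.39 with both drugs. PDE4B, a phosphodiesterase that degrades cAMP, was at 4.52, 6.59, 4.98 and 6.63, and PPP2R2B, a regulatory subunit of the phosphatase PP2A, at 4.87, 6.44, 5.24 and 6.89. Each of the 3 began below the floor, where levels have little meaning. TNFRSF19, a receptor of the TNF family, was at 5.49, 7.22, 6.17 and 7.50. TRIM6, a ubiquitin ligase, rose by 2.10 and the Rab GTPase RAB30 by 1.92. NOVA1, a neuronal splicing factor, rose by 1.65 on the probe set used and TMT1A by 1.78. Without shared probe sets both were below the floor on both arrays, NOVA1 at 2.31 and 2.28 and TMT1A at 4.08 and 4.28. IFIT1 rose by 1.27 and was the 1 of 22 interferon-stimulated genes to pass the rule.

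The ATF4 program was raised in part. Of its 60 measured genes in 4 lists, 4 of 23 stress regulators and 3 of 12 genes of amino acid synthesis rose, and 0 fell. The medians were 0.37 and 0.51, beside -0.06 for 13 amino acid transporters and 0.24 for 12 genes of tRNA charging, none of which passed the rule. All 12 of the last had a positive difference, from TARS1 at 0.10 to EPRS1 at 0.40. CHAC1 was at 5.23 with DMSO, 8.59 with vemurafenib, 4.96 with AT9283 and 7.13 with both drugs. NUPR1, a stress-induced chromatin regulator, was at 4.84, 8.09, 4.69 and 6.50, and JDP2, an AP-1 repressor, at 5.01, 8.01, 4.96 and 6.86. In all 3 genes the combination array lay between the arrays without vemurafenib and the one with vemurafenib alone.

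SESN2, an inhibitor of mTORC1, was at 6.08 with DMSO, 8.16 with vemurafenib, 6.10 with AT9283 and 7.35 with both drugs. CTH, which makes cysteine from cystathionine, was at 6.08, 9.28, 6.27 and 7.59. ALDH1L2, a mitochondrial folate enzyme, was at 5.57, 7.83, 5.98 and 6.87, and PSPH, the last enzyme of serine synthesis, at 7.73, 9.77, 7.76 and 8.87. The other genes of the program stayed under the rule against DMSO. ATF4 itself was at 11.22, 12.21, 11.21 and 11.83, DDIT3, which encodes CHOP, at 7.61, 9.69, 7.67 and 8.57, and asparagine synthetase ASNS at 8.98, 10.92, 8.92 and 9.68. TRIB3, a pseudokinase that ATF4 induces, was at 9.56, 10.48, 9.64 and 9.56, so its combination level equalled that with DMSO to 2 decimals. PPP1R15A, the regulatory subunit that dephosphorylates eIF2α, had -0.99 and STC2 had -0.85. TGATGNAA was in the promoter window of 8 of 48 genes of these lists (16.7%), beside 3.19% of all promoters and 1.38% of those at the floor. The lists were drawn up as genes of the ATF4 program, so this share may follow from that choice. Among the genes that rose it was 4.65%. The 8 list genes with the element were CHAC1, ASNS, ATF3, AARS1, HERPUD1, IARS1, GOT1 and FGF21. Their differences ran from 0.06 for FGF21 to 1.89 for CHAC1, and CHAC1 alone of them passed the rule. Without shared probe sets ATF3 was below the floor on both arrays, at 4.45 and 4.37. Among neighbouring lists, 0 of 10 eIF2 kinase and phosphatase genes (median 0.09) and 0 of 18 ER chaperones (-0.03) passed the rule. The same held for 15 glutathione and NRF2 genes (0.07). Over all genes at the floor 0.639% rose and 1.93% fell, so 0 in lists this short does not set them apart.

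Metabolic and structural lists moved little. Of 19 genes of FOXO and insulin feedback, with a median of 0.14, PDK4, which brakes pyruvate oxidation, rose by 1.05, while the pseudokinases TRIB1 and TRIB2 fell by 2.42 and 1.94 beside KLF6. TRIB1 was at 8.27 with DMSO, 6.27 with vemurafenib, 8.10 with AT9283 and 5.85 with both drugs. Of 24 glycolysis and hypoxia genes (median -0.06) the glucose transporter SLC2A3 alone passed the rule, falling by 1.52, and of 23 matrix and integrin genes (-0.12) the collagen receptor subunit ITGA2, by 1.15. PLAUR was the 1 of 16 plasminogen activator and protease genes (-0.26) to pass. None passed among 15 genes of nucleotide synthesis (median -0.08), 21 of lysosome and autophagy (0.12), 17 of oxidative phosphorylation (0.09) or 15 of cholesterol and fatty acid synthesis (0.08). The same held for 13 clock genes (0.10), 12 MHC class I genes (0.07), 18 pigment cell genes (0.13) and 12 housekeeping genes (-0.02). Only 5 of the clock genes and 5 of the pigment cell genes were at the floor, and a gene below it cannot pass. The clock gene TEF had a difference of 1.05 below the floor. Over all genes at the floor 0.639% rose and 1.93% fell, so 0 in such short lists lies near that share.

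AT9283 without vemurafenib and AT9283 with it can be compared on pairs that share no array, AT9283 minus DMSO and the combination minus vemurafenib. In the first pair 2 genes rose (0.0224% of 8938), FLG and LOC100190986, and 0 fell. In the second 0 rose and 29 fell (0.322% of 8999). The difference between the pairs, which equals the combination less the sum of the single-drug differences, was at -1 or lower in 26 of 9219 genes and at 1 or higher in 0. Some genes pass the floor of this count only through the vemurafenib array, which favours low values. With the floor set on the mean of the 4 arrays instead, the counts were 16 and 0. Its median was 0.01 and its SD across genes 0.19, and it rests on single arrays, so the noise of 4 arrays adds up in it and it was not tested. Of the 26 genes 16 were on the ATF4 lists, which were written with earlier results of these data known. INHBE, VLDLR and SLC1A4 among them reached the floor only on the vemurafenib array. This count was not repeated with the floor on the mean, so it is a description. The median over the 60 genes of these lists was 0.01 for AT9283 minus DMSO and -0.47 for the combination minus vemurafenib, beside medians of 0.02 and 0.03 over the genes at the floor. In the latter pair 57 of the 60 had a negative value, as did 3850 of the 9219 genes at the floor.

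INHBE, an activin subunit of the stress response, was at 2.49 with DMSO, 6.31 with vemurafenib, 2.04 with AT9283 and 3.57 with both drugs, so only the vemurafenib array reached the floor. ECM2, a matrix protein, was at 3.73, 7.64, 3.90 and 5.67. S100P, a calcium-binding protein, was at 6.45, 9.02, 6.46 and 7.13, a difference of 0.68 between both drugs and DMSO. VLDLR, a lipoprotein receptor, was at 4.33, 7.10, 4.34 and 5.46, and CCNG2, a cyclin of quiescent cells, at 5.41, 7.09, 5.40 and 5.74. These 5 genes and CTH, NUPR1, ALDH1L2, GDF15 and RAB39B had the 10 values farthest from the sum, from -2.30 for INHBE to -1.31 for RAB39B. GDF15, a stress cytokine, was at 5.86, 6.35, 6.10 and 5.24, a value of -1.36, and without shared probe sets it was below the floor on all 4 arrays, from 3.13 to 3.50. Away from the ATF4 lists AMIGO2 and KLF4 (-1.21) were at -1 or lower too, and JUN was at -0.98. The 175 genes that fell against DMSO had a median of 0.05 here and the 58 that rose one of -0.23. The values used for that choice enter this measure, so these medians are a description.

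**Figure D4:**
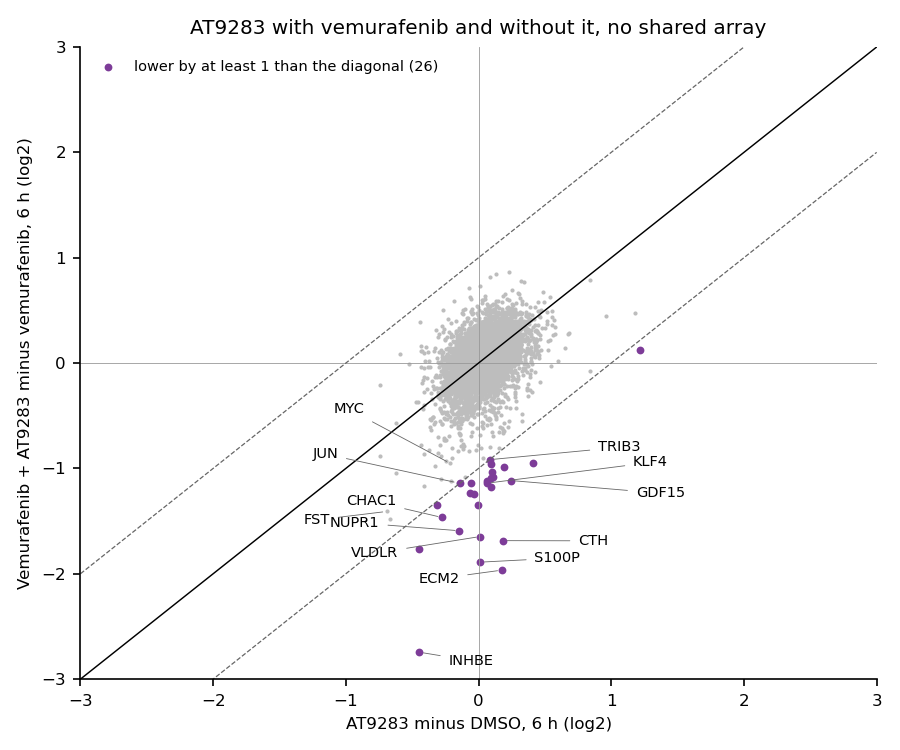
Combination minus vemurafenib (vertical) against AT9283 minus DMSO (horizontal), log2 at 6 h, for 9219 genes at the floor on at least 1 of the 4 arrays, with 1 array per condition. The solid diagonal marks equal differences and the dashed lines 1 above and below it; 26 genes (purple) lie at least 1 below, INHBE farthest at -2.30, and none lies 1 above, and with the floor on the mean of the 4 arrays 16 would lie below.

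Vemurafenib alone at 16 h was set against DMSO at 16 h, a pair that shares no array with the combination and DMSO at 6 h. In that pair 491 genes rose (5.19% of 9469) and 548 fell (5.79%). Of the 8893 genes that reached the floor in each comparison, 45 genes rose in both, 78.95% of the 57 that rose with both drugs and 15.31% of the 294 that rose at 16 h. A further 129 fell in both, 76.79% of 168 and 24.34% of 530. No gene passed the rule in opposite directions. The difference at 16 h had the same sign for 58 of the 58 rising genes and 173 of the 175 falling ones, the exceptions being TGFB2 and UBE2QL1. Of all genes at the floor in the 16 h pair, 48.91% had a positive difference. Over 8885 genes, which share arrays and are no replicates of each other, Pearson's r between the comparisons was 0.643 and Spearman's rank correlation was 0.552.

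**Figure D5:**
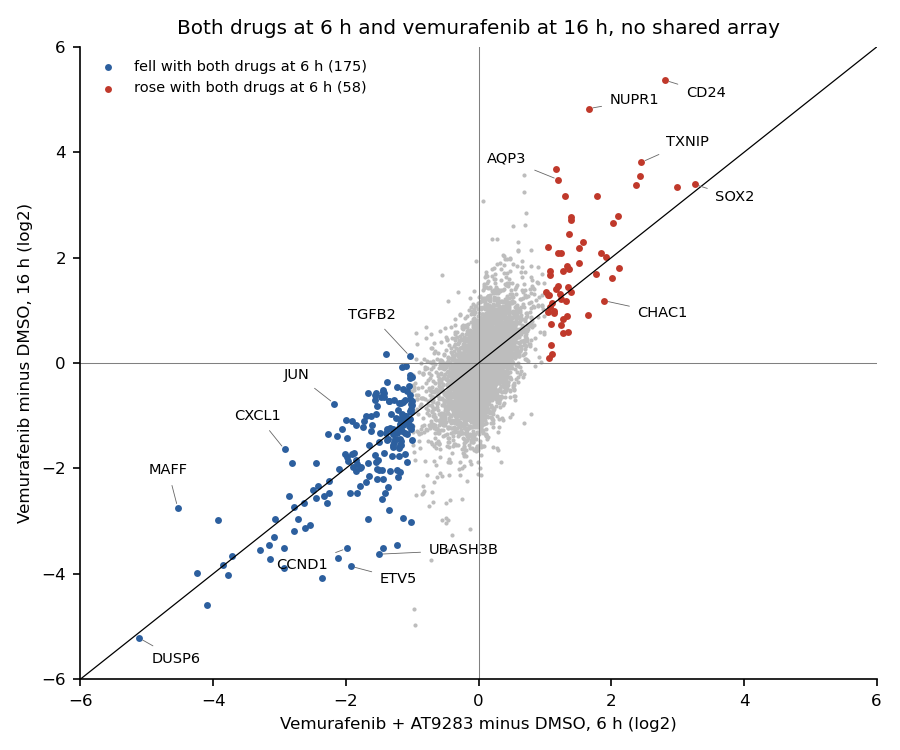
Vemurafenib minus DMSO at 16 h (vertical) against vemurafenib and AT9283 minus DMSO at 6 h (horizontal), log2, 1 array per condition, with the diagonal of equal differences. Blue points fell and red points rose with both drugs at 6 h, and grey points are the other genes with a mean level at the floor. DUSP6 lies near the diagonal at -5.12 and -5.22, CD24 and NUPR1 lie above it, and MAFF and JUN reached less far at 16 h.

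For DUSP6 the differences were -5.12 with both drugs at 6 h and -5.22 with vemurafenib at 16 h, and for EPHA2 -3.15 and -3.72. SOX2 had 3.26 and 3.39. Some genes stood much farther from DMSO at 16 h. NUPR1 had 1.66 with both drugs and 4.83 at 16 h, CD24 had 2.81 and 5.37, and ETV5 had -1.93 and -3.86. CYP1B1, a cytochrome P450, had 1.16 and 3.68, and AQP3, a water and glycerol channel, 1.20 and 3.48, both named after their values were seen. Others stood closer to it. MAFF had -4.53 with both drugs and -2.74 at 16 h, CXCL1 had -2.92 and -1.64, and JUN had -2.18 and -0.77. Vemurafenib alone at 6 h, whose difference shares the DMSO array with that of both drugs, had 3.26 for NUPR1, 3.01 for CD24 and -2.24 for ETV5. It had 0.84 for CYP1B1 and 1.47 for AQP3. For MAFF it had -3.67, for CXCL1 -3.06 and for JUN -1.04.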

How the data were processed

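Total RNA of A375 cells was measured on 6 Affymetrix arrays, 1 per condition, and each array was assigned from its label. The deposited values are probe set intensities on a linear scale in the authors' value table. RMA is the only tool in the submitters' processing notes. The version and joint or separate normalization were not given in the sources used. Nothing in the labels gives replicates, so no p-value was computed.

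Of 54675 probe sets 41097 had 1 gene symbol in the platform annotation, 1801 had several and 11777 were not listed. All 19735 symbols checked against RefSeq were current. In 1118 probe sets the values at 6 h sat in another row order than those at 16 h (r of the DMSO arrays 0.455 as deposited, 0.984 once restored, 0.992 over the other 53495). These and 62 control probe sets were left out.

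Intensities were taken to log2, and the probe set with the highest mean stood for a gene, which gave 19676 genes. Differences are treated minus control. Named genes were the 20 highest and 20 lowest over the size rule, up to 8 members per list over it, the highest and lowest of a list, the 10 farthest from the sum of the single drugs and 20 chosen for their roles. There were 48 lists of 748 different genes, 689 of them measured. The members, lists, motifs and rules were chosen with earlier results of these data known. A check of the size rule on simulated arrays planted changes larger than the threshold in genes well above the floor. Its noise was lower than the spread of the DMSO pair. It does not cover changes near the threshold or in genes near the floor. Alternatives changed scaling, floor, added intensity, probe sets, control, row order and threshold. Python 3.11.15, pandas 2.3.3, numpy 2.4.6, scipy 1.17.1 and matplotlib 3.10.9 were used.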

Additional observations from a re-analysis of the deposited data

How the results depend on the processing

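With 1 array per condition the differences have no replicate check, and sizes below log2 6 depend on values near background. No paired analysis was possible because each condition has 1 array. Named genes were run only under the settings that keep the floor and the threshold. There every named gene that passed the rule and had a probe set kept its direction, except HES1 and NOVA1. Without shared or cross-hybridizing probe sets HES1 had 0.0164 and NOVA1 -0.0235, and the GDF15 value against the sum of the single drugs became 0.0182. These probe sets were below the floor on every array at 6 h. Part of the 168 named genes had no probe set left once shared ones were removed. Of the rest 130 kept their side of the rule, 4 no longer passed it and 2 reversed. Of the named-gene values 1405 kept their side of the rule, 69 no longer passed it and 4 newly did. The scalings shifted the median of all genes by -0.0035 at most in size, and 54 of the 58 rises and 172 of the 175 falls passed under all 3 other scalings. Under all 10 settings that keep the floor and the threshold, the reported one included, 8 of the 58 and 68 of the 175 passed. A gene left with no probe set once shared ones were removed counted as not passing, TXNIP, CD24 and ID2 among them. The 58 rises became 99 with no floor, 26 with a floor of log2 7 or with values under the floor set to it, 29 with the mean over probe sets and 20 at a difference of at least 1.5. The 175 falls became 114 with the mean over probe sets and 84 at 1.5. The overlap with vemurafenib at 16 h and the sum of the single drugs were put through the same alternatives, a choice made after seeing the data. The 45 shared rises became 70 with no floor, 17 with a floor of 7 or values set to the floor, 29 with 16 added before log2, 24 with the mean over probe sets and 18 at 1.5, and the 129 shared falls became 61 at 1.5. The 26 genes below the sum became 41 with no floor 17 with values set to the floor and 16 with the floor on the mean of the 4 arrays, and the 0 above it became 6 with no floor and 1 without shared probe sets. The changes with the floor and the threshold follow from their construction, and for the mean over probe sets the cause was not tested.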

Other observations

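The genes in this section were chosen after their values were seen, and their levels are given for DMSO, vemurafenib, AT9283 and both drugs at 6 h in that order. TBX3, a T-box repressor, was at 8.66, 6.59, 8.49 and 6.52, TFAP2C, an AP-2 factor, at 9.98, 8.15, 10.02 and 8.13, and MSX1, a homeobox factor, at 9.27, 7.88, 9.37 and 8.16. HMGA2, an architectural chromatin protein, was at 11.14, 9.39, 10.97 and 9.49. Other HMGA2 probe sets at the floor differed by only -0.21 and -0.24 between both drugs and DMSO. GATA3 fell by 1.47 and RUNX3 by 1.17. VDR, the vitamin D receptor, was at 8.59, 6.92, 8.62 and 7.40 and PPARG, a nuclear receptor of fat cell formation, at 9.15, 7.88, 9.04 and 7.95.

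JAG1, a Notch ligand, was at 9.07, 7.29, 9.06 and 7.09, and VEGFC, a lymphatic growth factor, at 9.87, 8.43, 9.60 and 7.96. The ligand genes HBEGF and BMP2 fell by 1.33 and 1.21. TNFRSF10A, a TRAIL receptor, was at 8.61, 6.22, 8.86 and 6.91, so it stood 0.69 higher with both drugs than with vemurafenib alone. TNFRSF21, another death receptor, was at 10.07, 8.67, 10.03 and 8.51. CD274, which encodes PD-L1, was at 6.17, 4.33, 6.41 and 4.79 and reached the floor only on the arrays without vemurafenib. SLC20A1, a phosphate transporter, was at 11.27, 8.54, 11.15 and 8.55.

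NEFL, a neurofilament subunit, was at 9.35, 10.07, 9.40 and 10.71, and ELAVL2, a neuronal RNA-binding protein, at 6.15, 6.99, 6.50 and 7.47. Both were highest on the combination array among the 4 at 6 h. ANK3, a membrane scaffold of axons, was at 6.34, 8.14, 6.29 and 7.73, and SYBU, a cargo adaptor of axonal transport, at 6.17, 7.84, 6.40 and 7.42, both highest with vemurafenib alone. The protocadherin PCDH10 was at 6.36, 7.59, 6.43 and 7.53.

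Placing the misplaced 6 h values in the other row order added 99 genes, and none of them passed the size rule. DDIT4, an inhibitor of mTORC1 induced by stress, was among them, at 10.28, 11.56, 10.37 and 10.68.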
